A study of Homo sapiens with 9 samples.

Results

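The genes described here are 38 transcripts of glucose uptake, glycolysis, lactate handling and the hypoxia response, taken by gene name from a fixed list. All 38 were found among the 78894 genes of the expression tables, and 37 had enough reads to be tested. They were measured by poly-A RNA sequencing of Hap1, a human cell line with a nearly haploid genome that stems from a chronic myeloid leukaemia. In all 3 groups the endogenous SARS2 gene was deleted and a doxycycline-inducible FLAG-tagged copy was left without doxycycline for 6 days. SARS2 encodes the mitochondrial seryl-tRNA synthetase. The groups differed in a constitutive myc-tagged copy of SARS2, which was R227Q, H448L or wild type (WT), with 3 libraries per group. The promoter of that copy, its int14 element and the number of clones behind each group are not explained in the labels. The libraries come in 2 deposited matrices, whose columns begin with SDKYMR or 4LJFHN. What these column sets stand for is not stated in the labels. SDKYMR held R227Q 1, WT 1 and WT 2, and 4LJFHN held R227Q 2, R227Q 3, the 3 H448L libraries and WT 3.

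Glycolysis splits glucose into pyruvate in the cytosol and yields ATP without oxygen, and lactate dehydrogenase turns pyruvate into lactate so that the pathway can go on. When mitochondrial respiration is impaired, many cell types lean more on this route. The hypoxia-inducible factor HIF, a pair of an oxygen-labile alpha subunit such as HIF1A and the stable partner ARNT, raises transcription of most glycolytic genes. Prolyl hydroxylases of the EGLN family mark HIF1A for destruction while oxygen is present, so HIF activity is set largely at the protein level, which was not measured here.

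HIF binds DNA at a short core, ACGTG or GCGTG. To show where this core lies, the 250 bases before the RefSeq transcription start (GRCh38.p14) are printed for 6 members that passed the test against WT in at least 1 variant and hold a core there. Each runs 5′ to 3′ along the gene's strand, and capitals mark every ACGTG or GCGTG found on either strand. CACGTG, the E-box read by MYC, its partners and the glucose sensor MondoA, holds ACGTG on both strands and counts there as 2 overlapping matches. The windows are chr12:6914330-6914579 (plus strand) for ENO2, chrX:24465036-24465285 (plus) for PDK3, chr12:6535014-6535263 (plus) for GAPDH, chr11:18394313-18394562 (plus, 1 of 2 LDHA windows) for LDHA, chr17:28576896-28577145 (minus) for ALDOC and chrX:78103998-78104247 (plus) for PGK1.
ENO2: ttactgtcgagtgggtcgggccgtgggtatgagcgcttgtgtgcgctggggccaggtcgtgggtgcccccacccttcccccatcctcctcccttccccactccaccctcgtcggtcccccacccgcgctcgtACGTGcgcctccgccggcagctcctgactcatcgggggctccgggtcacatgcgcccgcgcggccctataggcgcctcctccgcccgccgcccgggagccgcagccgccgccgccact
PDK3: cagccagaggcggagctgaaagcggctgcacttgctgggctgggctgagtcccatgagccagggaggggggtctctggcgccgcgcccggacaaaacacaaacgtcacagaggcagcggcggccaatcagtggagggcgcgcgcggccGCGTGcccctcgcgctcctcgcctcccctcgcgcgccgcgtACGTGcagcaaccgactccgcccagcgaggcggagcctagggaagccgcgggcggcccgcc
GAPDH: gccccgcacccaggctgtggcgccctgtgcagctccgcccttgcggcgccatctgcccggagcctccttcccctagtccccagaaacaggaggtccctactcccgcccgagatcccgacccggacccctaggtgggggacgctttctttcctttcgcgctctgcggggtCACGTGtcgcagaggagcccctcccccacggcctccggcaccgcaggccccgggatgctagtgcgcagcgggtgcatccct
LDHA: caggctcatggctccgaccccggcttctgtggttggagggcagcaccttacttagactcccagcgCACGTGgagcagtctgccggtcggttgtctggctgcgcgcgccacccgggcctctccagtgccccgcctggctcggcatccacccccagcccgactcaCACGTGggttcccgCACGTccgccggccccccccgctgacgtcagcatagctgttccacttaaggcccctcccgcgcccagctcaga
ALDOC: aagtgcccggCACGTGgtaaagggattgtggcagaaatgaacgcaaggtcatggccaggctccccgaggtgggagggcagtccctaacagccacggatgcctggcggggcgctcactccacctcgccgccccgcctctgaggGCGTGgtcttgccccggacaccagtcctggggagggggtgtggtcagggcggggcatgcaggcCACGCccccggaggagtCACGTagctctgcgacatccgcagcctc
PGK1: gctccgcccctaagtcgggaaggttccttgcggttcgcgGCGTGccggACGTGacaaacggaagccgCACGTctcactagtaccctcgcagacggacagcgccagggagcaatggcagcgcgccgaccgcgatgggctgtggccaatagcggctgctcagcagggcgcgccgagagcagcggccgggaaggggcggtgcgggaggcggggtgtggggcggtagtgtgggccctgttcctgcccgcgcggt
LDHA and ALDOC each had 5 matches before the start, PGK1 had 3, PDK3 and GAPDH had 2, and ENO2 had 1. The 6 genes were chosen for holding a core, so its presence in rising and falling genes was set by that choice. E-boxes were present in the LDHA, ALDOC and GAPDH stretches. The RefSeq promoter table matched 34 of the 38 members with 64 windows, each from 250 bases before to 50 after a start, and SLC2A3, SLC16A1, BNIP3L and NDRG1 had no entry. ACGTG or GCGTG on either strand occurred in 42 of the 64 member windows (65.6%) and in 17012 of all 35116 windows (48.4%). ACGTG alone occurred in 39.1% of member windows and 21.4% of all windows, GCGTG in 40.6% and 36.5%, and CACGTG in 12.5% and 7.26%. A match describes the letters and is not evidence of binding. The PGAM1 window held neither core.

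Total counts per library ran from 9900892 to 12991050, and the 38 genes took 0.78% to 1.00% of them. Levels are in CPM, which are counts relative to the total of their library; a single count equals 0.0770 to 0.1010 CPM here. CPM is not corrected for transcript length, and levels are therefore compared between libraries and not between genes. Differences are log2 fold changes with their standard error from edgeR's quasi-likelihood test, fitted over 16908 genes in all 9 libraries with the column set as a term, and "passed" means a Benjamini-Hochberg adjusted p under 0.05. Whether the 3 libraries of a group are separate cultures is not stated in the labels, so a p-value here speaks of the spread among libraries, which may be technical. SARS2 itself had 8.68, 8.35 and 7.09 CPM in R227Q 1 to 3, 7.88, 8.68 and 7.93 CPM in H448L 1 to 3, and 7.70, 8.54 and 6.20 CPM in WT 1 to 3, and did not pass in either variant. Its counts may mix transcripts of the several SARS2 copies. SARS2 also shares 1492 exon bases with the same-strand gene AC011455.2, which had a mean count of 31.5 against 91.9 for SARS2. A further 349 exon bases overlap MRPS12 on the other strand. Of the cell type markers, 8 of 10 haematopoietic markers and 3 of 4 endothelial markers stayed under 1 CPM in every library, so defining blood cell genes such as PTPRC, CD34 and SPI1 were near 0 in a line of leukaemic origin.

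Against WT, 7 of 37 tested members passed in R227Q cells (18.9%). ENO2 and ALDOC, isoforms of enolase and aldolase best known from neurons, rose, and PDK3, PGAM1, GAPDH, LDHA and PGK1 fell. The background was of the same size, since 17.4% of all tested genes passed in this comparison, 7.5% higher and 9.91% lower. In H448L cells 2 of 37 members passed (5.41%), with ENO2 higher and PGK1 lower, against 7.97% of all tested genes (2.97% higher and 4.99% lower). The median log2 fold change of the members was −0.06 in R227Q (range −0.34 to 0.60) and −0.05 in H448L (−0.37 to 0.29), beside 0.00 and 0.01 over all tested genes. ALDOC in R227Q cells was the one member that changed by 1.5-fold or more. Both comparisons use the same WT libraries, so their values are not independent. Where groups are described below as overlapping or not, the CPM of all libraries of 2 groups did not overlap for 19.2% of tested genes in R227Q against WT and for 31.5% in H448L against WT, and R227Q and WT did not overlap for 77.7% within SDKYMR, with its 1 R227Q library, and for 78.2% within 4LJFHN, with its 1 WT library. Separation within a column set is therefore the usual case and is given only as a description. SDKYMR held no H448L library but held WT 1 and WT 2. Overlap of H448L with WT therefore also mixes column set with genotype. DESeq2 called 7 members in R227Q and 1 in H448L, and limma-voom 8 and 2. Regardless of sign, the median size of the members' log2 fold changes was 0.10 in R227Q and 0.09 in H448L, against 0.14 and 0.13 over all genes. Of the marker lists, 2 of 5 tested fibroblast markers were higher and 1 lower in R227Q cells, 1 of 4 neuronal markers was higher (MAP2) and 2 lower (TUBB3 and SYP), and 1 of 3 epithelial markers was higher. In H448L cells 1 fibroblast and 1 neuronal marker (TUBB3) were lower, and no other marker of these lists passed. Fewer cells of a kind and less RNA per cell cannot be told apart in such bulk samples, and the part of these markers in the member differences was not tested.

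**Figure D1:**
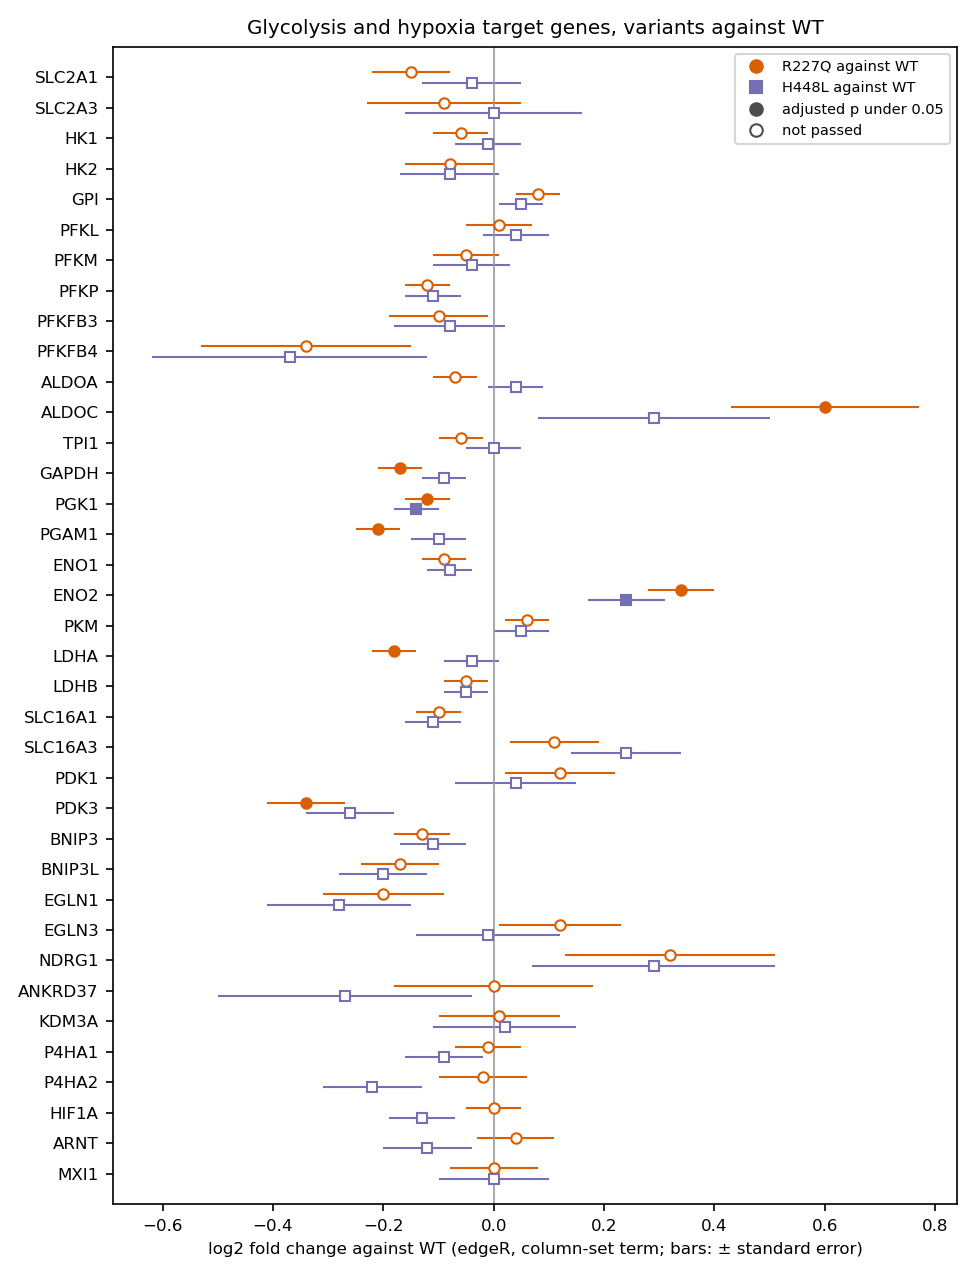
Log2 fold change against WT (x axis; bars are ± 1 standard error) for each of the 37 tested members (y axis, in pathway order), R227Q as orange circles and H448L as purple squares; filled symbols have an adjusted p under 0.05. Most members lie within 0.2 of zero, and the 9 filled symbols are ENO2 and PGK1 in both variants and ALDOC, GAPDH, PGAM1, LDHA and PDK3 in R227Q.

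In the lower part of the pathway, from triose phosphate to pyruvate, 4 of 7 members passed in R227Q cells and 2 of 7 in H448L cells, where 17.4% and 7.97% of all tested genes did. A list of 7 is too short to read a share from. ENO2 (ENSG00000111674, GRCh38 chromosome 12, 6913745 to 6923698, plus strand), the gamma isoform of enolase, had 47.9, 40.8 and 43.6 CPM in R227Q 1 to 3, 38.2, 40.0 and 41.4 CPM in H448L 1 to 3, and 38.3, 37.0 and 33.3 CPM in WT 1 to 3. Every R227Q library was above every WT library, while H448L 1 lay just under WT 1, a library of the other column set. The means were 44.1 ± 3.6 CPM in R227Q, 39.9 ± 1.61 CPM in H448L and 36.2 ± 2.58 CPM in WT (SD, n = 3 each). The log2 fold change was 0.34 ± 0.06 in R227Q (edgeR adjusted p = 0.0002), and it was 0.34 within SDKYMR and 0.33 within 4LJFHN. It passed with any single library left out. In H448L cells ENO2 rose by 0.24 ± 0.07 (edgeR adjusted p = 0.041), and that call ended when any of WT 1, WT 2, WT 3, R227Q 1, R227Q 2, H448L 2 or H448L 3 was left out, at log2 fold changes of 0.22 to 0.26, and with DESeq2.

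PGK1, phosphoglycerate kinase, which makes the first ATP of the payoff phase, was lower in both variants by a small margin. It lies at GRCh38 chromosome X, 77910739 to 78129296, plus strand (ENSG00000102144), and had 631.2, 615.6 and 602.5 CPM in R227Q 1 to 3, 597.9, 607.3 and 617.6 CPM in H448L 1 to 3, and 665.5, 678.0 and 664.9 CPM in WT 1 to 3. The WT libraries lay above all 6 variant libraries. The log2 fold change was −0.12 ± 0.04 in R227Q (edgeR adjusted p = 0.019) and −0.14 ± 0.04 in H448L (edgeR adjusted p = 0.031). The R227Q call ended without WT 2, WT 3, R227Q 1 or R227Q 3, and the H448L call without WT 2, WT 3, R227Q 1 or H448L 2, while the values stayed between −0.15 and −0.10. Both calls also ended with upper-quartile factors.

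GAPDH, glyceraldehyde-3-phosphate dehydrogenase, and PGAM1, phosphoglycerate mutase, fell in R227Q cells. GAPDH (ENSG00000111640, chromosome 12, 6533927 to 6538374, plus strand) had 1840.0, 1079.2 and 1070.1 CPM in R227Q 1 to 3, 1095.2, 1120.4 and 1217.5 CPM in H448L 1 to 3, and 2060.1, 2105.2 and 1186.5 CPM in WT 1 to 3. The groups overlapped across column sets, but within each column set the R227Q libraries were below WT. The log2 fold change was −0.17 ± 0.04 (edgeR adjusted p = 0.0017), with −0.19 within SDKYMR and −0.15 within 4LJFHN, and the call ended without R227Q 1. PGAM1 (ENSG00000171314, chromosome 10, 97426160 to 97433441, plus strand) had 154.2, 90.4 and 92.3 CPM in R227Q 1 to 3, 95.5, 103.4 and 102.4 CPM in H448L 1 to 3, and 173.1, 173.3 and 107.9 CPM in WT 1 to 3. It was below WT in each column set, at −0.21 ± 0.04 on the log2 scale (edgeR adjusted p = 0.0011), −0.18 within SDKYMR and −0.25 within 4LJFHN. The PGAM1 call ended without WT 3. PGAM4, a retrotransposed copy of PGAM1 that can share its reads, had −0.23 ± 0.08 (edgeR adjusted p = 0.044), a call that ended with DESeq2 and when any of WT 1, WT 2, WT 3, R227Q 1, R227Q 2, H448L 1 or H448L 2 was left out. The split of reads between PGAM1 and PGAM4 is uncertain. In H448L cells GAPDH was at −0.09 ± 0.04 (edgeR adjusted p = 0.25) and PGAM1 at −0.10 ± 0.05 (edgeR adjusted p = 0.29), and neither passed.

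The remaining enzymes of the lower part did not pass. ENO1, the main enolase, was at −0.09 ± 0.04 in R227Q (edgeR adjusted p = 0.073) and −0.08 ± 0.04 in H448L (0.26). TPI1, triose phosphate isomerase, was at −0.06 and 0.00, and PKM, pyruvate kinase, at 0.06 and 0.05. With opposite signs for ENO2 and ENO1, the log2 ratio of ENO2 to ENO1 was −5.53, −5.62 and −5.50 in R227Q 1 to 3, −5.69, −5.63 and −5.68 in H448L 1 to 3, and −5.92, −6.05 and −5.98 in WT 1 to 3, so every variant library lay above every WT library.

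**Figure D2:**
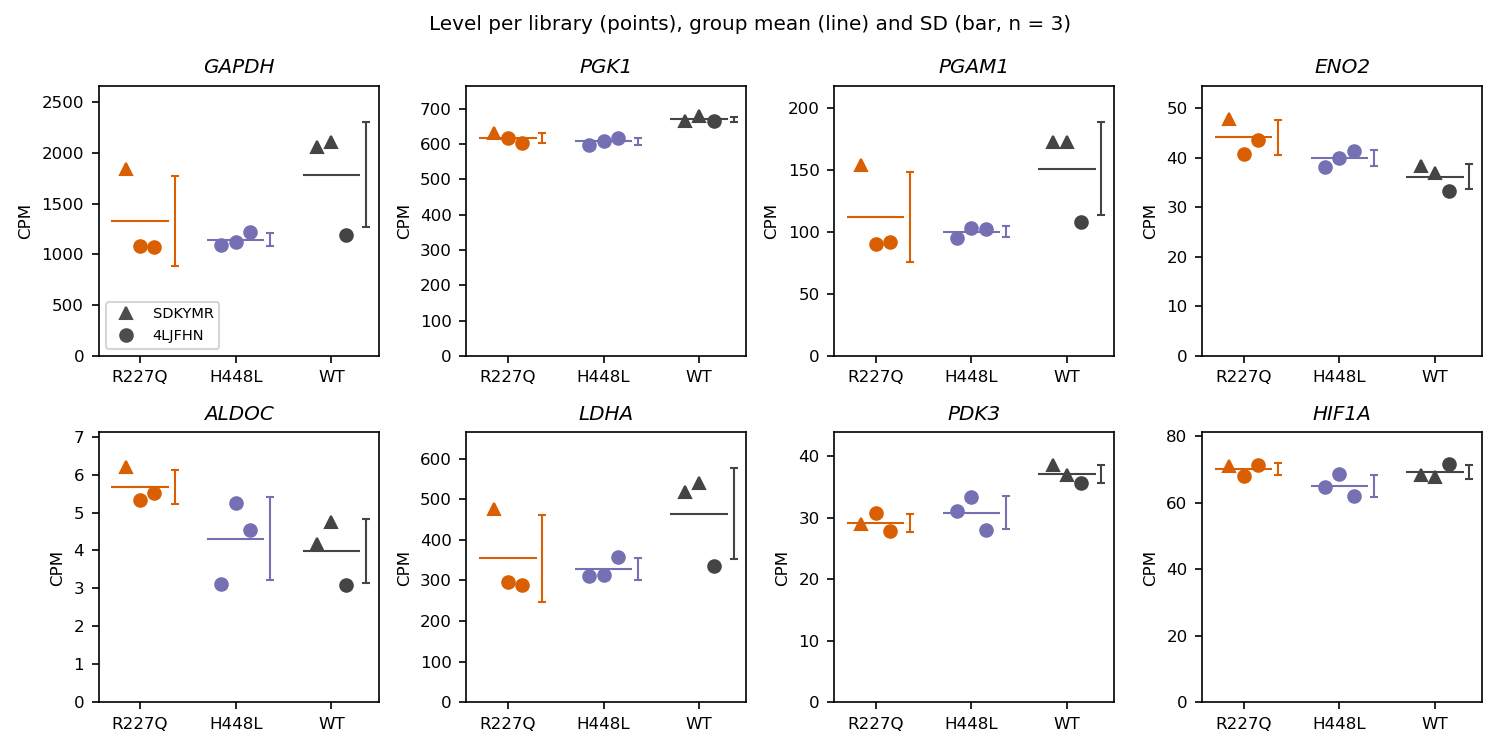
Level in CPM (y axis, from 0) of the 7 members that passed in at least 1 variant and of HIF1A, per library, for R227Q (orange), H448L (purple) and WT (grey); triangles are SDKYMR libraries and circles 4LJFHN libraries, lines are means and bars ± SD (n = 3). GAPDH, PGAM1 and LDHA split by column set, with triangles far above circles, whereas PGK1 and PDK3 split by genotype.

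In the upper part, from hexokinase to aldolase, 1 of 10 members passed in R227Q and 0 of 10 in H448L, where edgeR gave 1 (PFKP) at an unadjusted p under 0.05. ALDOC (ENSG00000109107, chromosome 17, 28573115 to 28577264, minus strand), aldolase C, had 6.19, 5.33 and 5.51 CPM in R227Q 1 to 3, 3.12, 5.26 and 4.55 CPM in H448L 1 to 3, and 4.16, 4.74 and 3.08 CPM in WT 1 to 3. All R227Q libraries were above all WT libraries, and the H448L and WT libraries overlapped. The log2 fold change was 0.60 ± 0.17 in R227Q (1.51-fold, edgeR adjusted p = 0.014), with 0.46 within SDKYMR and 0.77 within 4LJFHN, and 0.29 ± 0.21 in H448L (edgeR adjusted p = 0.47). The R227Q call ended without WT 3 or R227Q 1 and with DESeq2. ALDOA, the abundant muscle-type aldolase, was at −0.07 ± 0.04 and 0.04 ± 0.05, which did not pass, and its counts are uncertain because it shares 1657 exon bases with the same-strand gene AC093512.2, whose mean count of 2594.3 was almost that of ALDOA (2595.1).

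The steps that commit glucose to the pathway did not pass. HK1 and HK2, the hexokinases that trap glucose in the cell, were at −0.06 ± 0.05 and −0.08 ± 0.08 in R227Q and −0.01 ± 0.06 and −0.08 ± 0.09 in H448L. GPI, phosphoglucose isomerase, was at 0.08 ± 0.04 in R227Q (edgeR adjusted p = 0.16) and 0.05 ± 0.04 in H448L. Of the phosphofructokinase subunits, PFKP was nearest to the threshold, with −0.12 ± 0.04 in R227Q (edgeR adjusted p = 0.054) and −0.11 ± 0.05 in H448L (0.19). PFKL and PFKM lay between −0.05 and 0.04 in both variants. The bifunctional enzymes PFKFB3 and PFKFB4, which set the phosphofructokinase activator fructose 2,6-bisphosphate, were at −0.10 ± 0.09 and −0.34 ± 0.19 in R227Q and −0.08 ± 0.10 and −0.37 ± 0.25 in H448L. PFKFB4 had 1.95 to 4.28 CPM in R227Q, 2.22 to 3.25 CPM in H448L and 3.89 to 4.73 CPM in WT, which leaves its estimate wide. The glucose transporters did not pass either: SLC2A1 (GLUT1) was at −0.15 ± 0.07 in R227Q and −0.04 ± 0.09 in H448L, and SLC2A3 (GLUT3) at −0.09 ± 0.14 and 0.00 ± 0.16.

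At the exit of the pathway, LDHA and PDK3 fell in R227Q cells. LDHA (ENSG00000134333, chromosome 11, 18394388 to 18408425, plus strand), the lactate dehydrogenase subunit of glycolytic tissues, had 476.7, 297.2 and 288.7 CPM in R227Q 1 to 3, 310.8, 313.4 and 358.5 CPM in H448L 1 to 3, and 518.6, 538.9 and 335.2 CPM in WT 1 to 3. R227Q was below WT in each column set, although the groups overlapped when column sets were mixed. Its log2 fold change was −0.18 ± 0.04 in R227Q (edgeR adjusted p = 0.0042), with −0.16 within SDKYMR and −0.20 within 4LJFHN, and −0.04 ± 0.05 in H448L (edgeR adjusted p = 0.71). The R227Q call ended without WT 3 or R227Q 1. LDHB, the heart-type subunit, was at −0.05 ± 0.04 in both variants. The lactate carriers SLC16A1 (MCT1) and SLC16A3 (MCT4) were at −0.10 ± 0.04 and 0.11 ± 0.08 in R227Q and −0.11 ± 0.05 and 0.24 ± 0.10 in H448L, and none passed.

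PDK3, a kinase that shuts off pyruvate dehydrogenase and so keeps pyruvate out of the mitochondrial cycle, had 28.9, 30.8 and 27.9 CPM in R227Q 1 to 3, 31.1, 33.4 and 28.0 CPM in H448L 1 to 3, and 38.6, 36.9 and 35.7 CPM in WT 1 to 3. It lies at chromosome X, 24465221 to 24541862, plus strand (ENSG00000067992). All 6 variant libraries were below the WT libraries. The means were 29.2 ± 1.48 CPM in R227Q, 30.8 ± 2.73 CPM in H448L and 37.0 ± 1.45 CPM in WT (SD, n = 3 each). The log2 fold change was −0.34 ± 0.07 in R227Q (edgeR adjusted p = 0.00088), with −0.39 within SDKYMR and −0.29 within 4LJFHN, and the call ended without R227Q 1. In H448L it was −0.26 ± 0.08 (edgeR adjusted p = 0.055), which narrowly missed the threshold. The other kinase in the list, PDK1, was at 0.12 ± 0.10 in R227Q and 0.04 ± 0.11 in H448L.

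In the hypoxia arm, of the 4 oxygen-sensing members 0 passed in either variant (edgeR, and 0 at an unadjusted p under 0.05), and of 6 other tested HIF targets also 0, with 0 in R227Q and 1 in H448L (P4HA2) at an unadjusted p under 0.05. HIF1A had 70.9, 68.1 and 71.4 CPM in R227Q 1 to 3, 64.6, 68.6 and 61.9 CPM in H448L 1 to 3, and 68.2, 67.8 and 71.7 CPM in WT 1 to 3. The R227Q and WT libraries overlapped, and the R227Q difference was 0.00 ± 0.05 on the log2 scale, while H448L was at −0.13 ± 0.06 (edgeR adjusted p = 0.24). Its partner ARNT was at 0.04 ± 0.07 and −0.12 ± 0.08. The oxygen sensor EGLN1 was at −0.20 ± 0.11 in R227Q and −0.28 ± 0.13 in H448L, and EGLN3, itself a HIF target, at 0.12 ± 0.11 and −0.01 ± 0.13. Within libraries the log2 ratio of EGLN3 to EGLN1 was 0.15 to 0.37 in R227Q, 0.12 to 0.39 in H448L and −0.16 to −0.05 in WT. The ranges of both variants lay above that of WT, but the ratio was not tested.

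The mitophagy receptors BNIP3 and BNIP3L, HIF targets that mark mitochondria for removal, were at −0.13 ± 0.05 and −0.17 ± 0.07 in R227Q (edgeR adjusted p = 0.067 and 0.078) and −0.11 ± 0.06 and −0.20 ± 0.08 in H448L (0.25 and 0.13). NDRG1, a stress-responsive growth suppressor, had 3.08 to 3.30 CPM in R227Q, 2.95 to 3.28 CPM in H448L and 2.48 to 2.66 CPM in WT. Both variants lay above WT in every library, yet at 0.32 ± 0.19 and 0.29 ± 0.22 it did not pass (edgeR adjusted p = 0.32 and 0.56). The collagen prolyl hydroxylases P4HA1 and P4HA2 were at −0.01 and −0.02 in R227Q and −0.09 ± 0.07 and −0.22 ± 0.09 in H448L (edgeR adjusted p = 0.55 and 0.13). KDM3A, a histone demethylase, and MXI1, a MYC antagonist, lay between 0.00 and 0.02 in both variants. ANKRD37 was at 0.00 ± 0.18 in R227Q and −0.27 ± 0.23 in H448L. CA9, the cell-surface carbonic anhydrase widely used as a hypoxia marker, had 0 counts in all 9 libraries, which allows at most 0.231 to 0.303 CPM at 3 counts per library. That limit covers counting error only, and CA9 exons overlap ARHGEF39 on the other strand.

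The direct contrast of H448L with R227Q asked whether the variants differ from each other. Here 0 of 37 members passed, where 0.207% of all tested genes did (35 genes, 0.0828% higher and 0.124% lower). Before adjustment, edgeR gave 7 members with a p under 0.05, 4 higher and 3 lower in H448L, and DESeq2 and limma-voom also called 0 after adjustment. The share of all tested genes under that unadjusted threshold is not given, here or for the other unadjusted counts. Such counts therefore cannot be read as an excess. Of the 7 members, LDHA was 0.14 ± 0.05 higher in H448L (edgeR adjusted p = 0.21), and PGAM1, ALDOA and GAPDH were at 0.11, 0.10 and 0.08. P4HA2, ARNT and HIF1A were at −0.20, −0.16 and −0.13. The median of the members was 0.00, within a range of −0.30 to 0.14. LDHA thus passed in R227Q against WT and not in H448L, but the difference between the variants did not pass.

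The precision depended on depth. For the 13 members with a mean of at least 100 CPM the standard error of the R227Q difference was 0.04 to 0.05, for the 14 between 20 and 100 CPM it was 0.05 to 0.09, and for the 10 below 20 CPM it was 0.08 to 0.19. A difference of the size seen in PGK1 is thus under 1 standard error for PFKFB4, ALDOC or NDRG1 and could not be detected there.

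The column sets also differed in these genes. Of the 37 tested members, 21 differed between SDKYMR and 4LJFHN (56.8%), 13 of them higher and 8 lower in SDKYMR, against 43.8% of all tested genes (23% higher and 20.8% lower; edgeR adjusted p under 0.05). For 27 of the 37 members this difference was larger than that between R227Q and WT. GAPDH averaged 2001.8 CPM in the 3 SDKYMR libraries and 1128.2 CPM in the 6 4LJFHN libraries, a log2 difference of 0.84 (edgeR adjusted p = 2.9e-17). PGAM1 was higher in SDKYMR by 0.77, LDHA by 0.73, TPI1 by 0.69, SLC2A1 by 0.65, PFKFB4 by 0.54, HK2 by 0.49 and SLC16A3 by 0.43. In contrast PDK1 was lower in SDKYMR, with a log2 difference of −0.41, as were SLC2A3 (−0.36), P4HA2 (−0.34) and HK1 (−0.30). All but 1 of the 7 enzymes of the lower part were higher in SDKYMR, the exception being PGK1 at 0.08 (edgeR adjusted p = 0.054). HIF1A did not differ beyond its error, at 0.02 (edgeR adjusted p = 0.75). Some markers moved with the column set too: the fetal globin gene HBG1 had 0 counts in the SDKYMR libraries and 13 to 19.9 CPM in the 4LJFHN libraries. KIT, the other tested haematopoietic marker, did not split, with 3.83 to 4.46 CPM in SDKYMR and 3.24 to 4.54 CPM in 4LJFHN. In the 4LJFHN libraries HBG1 made up most of the summed haematopoietic list. The summed haematopoietic list was 5.95 to 21.1 CPM in R227Q, 20.4 to 25.2 CPM in H448L and 5.79 to 21.4 CPM in WT, and the summed fibroblast list 33.4 to 74.5, 64.2 to 76.1 and 30.1 to 64.8 CPM. Their part in the member differences was not tested.

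**Figure D3:**
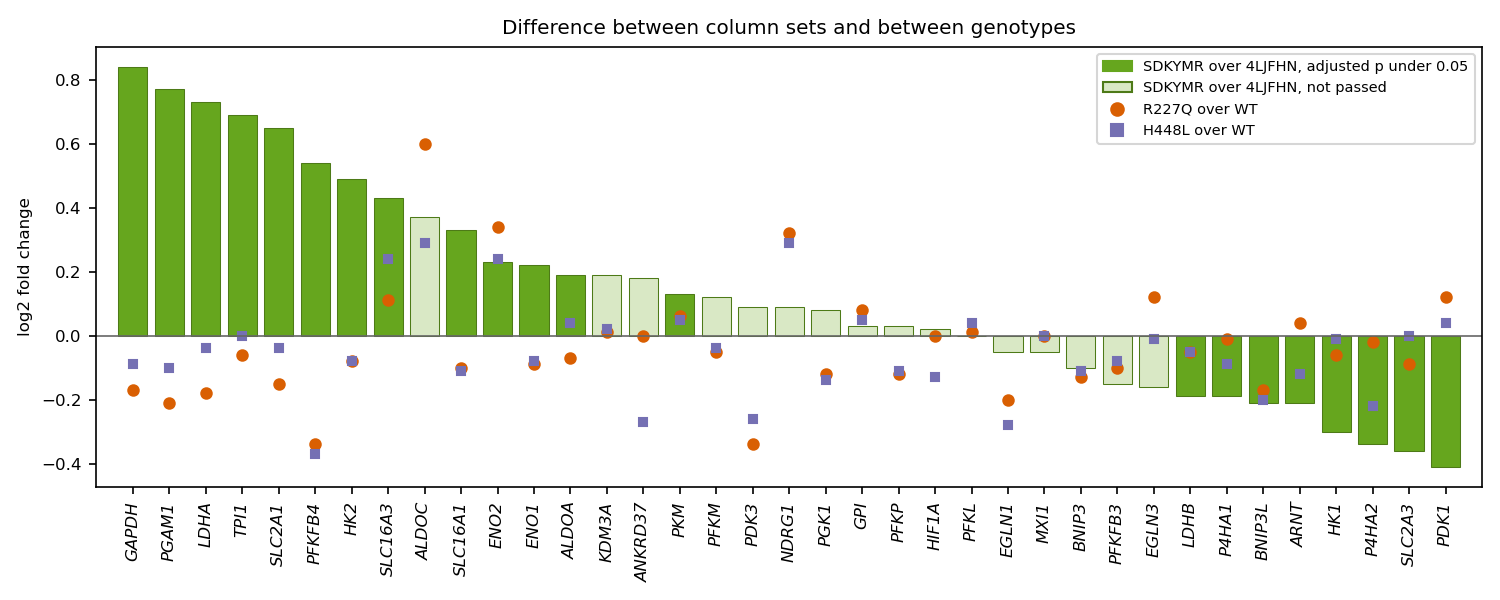
Log2 difference between column sets, SDKYMR over 4LJFHN (green bars, dark where the adjusted p was under 0.05), for the 37 tested members sorted by that difference (x axis), with the log2 fold change of R227Q (orange circles) and H448L (purple squares) over WT on the same y axis. The bars reach from 0.84 for GAPDH to −0.41 for PDK1, and most genotype points lie much closer to zero.

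The balance between related genes also differed by column set. The log2 ratio of LDHA to LDHB was −0.58 in R227Q 1 and −0.49 and −0.41 in WT 1 and WT 2, all of SDKYMR, but −1.51 to −1.49 in R227Q 2 and R227Q 3, −1.42 to −1.25 in H448L and −1.37 in WT 3, all of 4LJFHN. HK2 to HK1 was −1.19 to −0.98 in the SDKYMR libraries and −2.05 to −1.74 in the 4LJFHN libraries. SLC2A3 to SLC2A1 went the other way, with −3.50 to −3.25 in the SDKYMR libraries and −2.49 to −2.03 in the 4LJFHN libraries. PDK3 to PDK1 moved with both: it was lower by 0.57 in R227Q than in WT within SDKYMR and by 0.37 within 4LJFHN.

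**Figure D4:**
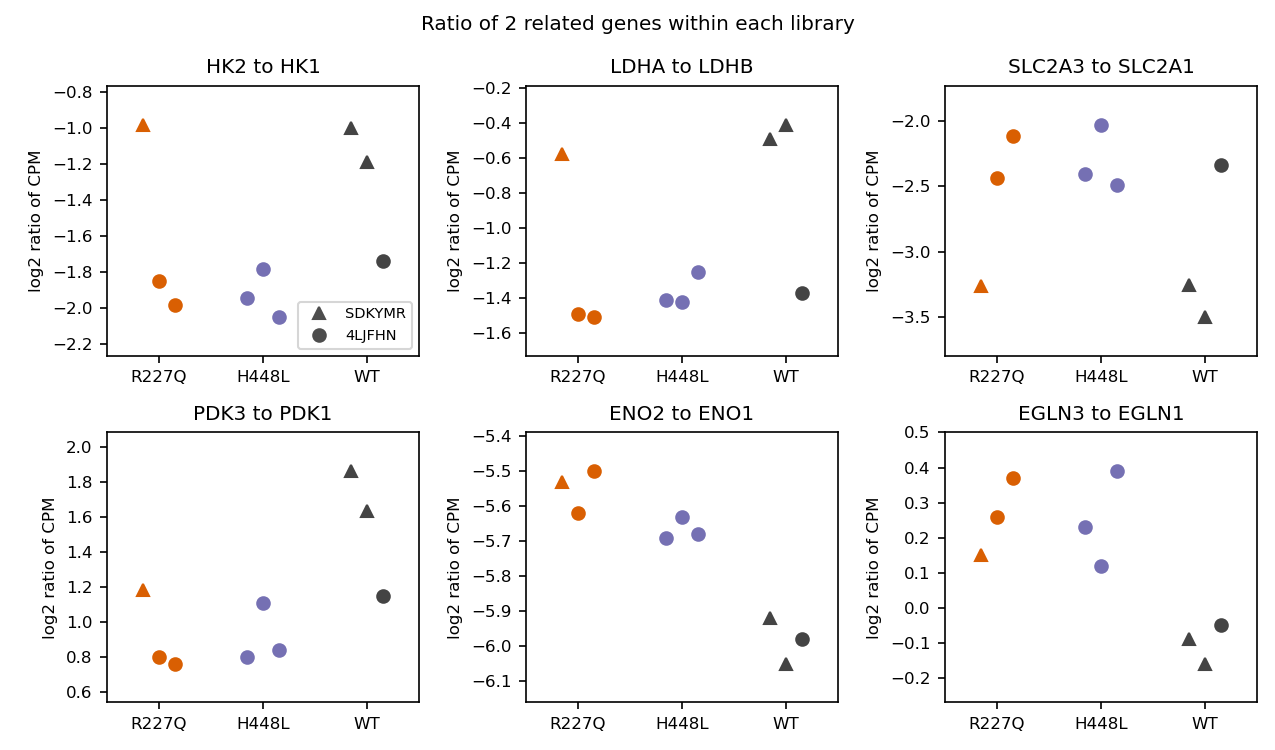
Log2 ratio of CPM between 2 related members within each library (y axis) for R227Q (orange), H448L (purple) and WT (grey); triangles are SDKYMR and circles 4LJFHN. HK2 to HK1, LDHA to LDHB and SLC2A3 to SLC2A1 separate by column set, whereas ENO2 to ENO1 and EGLN3 to EGLN1 separate both variants from WT. Further pairs are not shown; of these, PFKP to PFKL also separates both variants (1.19 to 1.41) from WT (1.42 to 1.53). How often ratios of other genes separate in this way was not tested.

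Several members overlap other genes, and the sources used here do not state whether counting used strand. LDHB shares 997 exon bases with the same-strand gene AC010197.2, which had a mean count of 2177.2 against 9266.4 for LDHB. On the opposite strand, GAPDH shares 422 exon bases with AC006064.4, SLC16A3 482 with CSNK1D, PFKM 628 with SENP1, BNIP3L 330 with PNMA2 and ANKRD37 909 with UFSP2. CA9 shares 643 exon bases with ARHGEF39, also on the opposite strand. The levels of these members are uncertain to that extent. Annotated pseudogenes held few reads, with 0.102% of the GAPDH count over 65 GAPDH pseudogenes and at most 1.52% of any member's count, for BNIP3.

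Genes around the pathway gave mixed counts, to be read beside the shares of all tested genes (7.5% higher and 9.91% lower in R227Q, 2.97% and 4.99% in H448L). Among other HIF targets, 5 of 36 tested genes were higher and 4 lower in R227Q, and 3 higher and 3 lower in H448L. DDIT4, an inhibitor of mTORC1 that hypoxia and other stresses induce, had 89.3, 61.4 and 66.8 CPM in R227Q 1 to 3, 56.3, 56.9 and 52.9 CPM in H448L 1 to 3, and 60.1, 56.9 and 43.2 CPM in WT 1 to 3. Its log2 fold change was 0.58 ± 0.06 in R227Q and 0.35 ± 0.07 in H448L, and both passed (edgeR adjusted p = 7.9e-09 and 0.0011). STC2, a secreted glycoprotein, rose by 0.42 ± 0.07 and 0.28 ± 0.08, the second call ending with DESeq2 and without WT 3 or H448L 1. VEGFA, the angiogenic growth factor, rose in R227Q by 0.40 ± 0.08 (edgeR adjusted p = 0.00088, lost without R227Q 1) and was at 0.23 ± 0.10 in H448L (0.16). TFRC, the transferrin receptor, fell by 0.69 ± 0.05 in R227Q and 0.51 ± 0.05 in H448L. ERO1A, the hypoxia-induced oxidase of the endoplasmic reticulum, was at −0.12 ± 0.05 and −0.13 ± 0.07 and did not pass. In the HIF pathway core, 1 of 16 was higher and 2 lower in R227Q, and 0 and 1 in H448L. ELOC, a subunit of the VHL ubiquitin ligase, fell by 0.17 ± 0.04 and 0.16 ± 0.05, calls that ended without WT 3 in R227Q and without WT 3, R227Q 1, R227Q 3 or H448L 2 in H448L. CUL2, its scaffold, fell by 0.25 ± 0.06 in R227Q (lost without WT 3 or R227Q 1) and was at −0.18 ± 0.07 in H448L. VHL was at −0.12 ± 0.05 and −0.15 ± 0.06, and EPAS1 (HIF2A) at −0.60 ± 0.29 and −0.25 ± 0.33, and neither passed.

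The metabolic neighbours were just as mixed. Of 16 tested genes of pyruvate and lactate handling, 1 was higher and 2 lower in R227Q, and 1 and 0 in H448L. PCK2, the mitochondrial phosphoenolpyruvate carboxykinase, had 68.1, 62.3 and 60 CPM in R227Q 1 to 3, 57.8, 53.3 and 59.3 CPM in H448L 1 to 3, and 43.0, 42.0 and 35.0 CPM in WT 1 to 3, with all variant libraries above WT. It rose by 0.72 ± 0.06 and 0.62 ± 0.07 (edgeR adjusted p = 7e-10 and 9.4e-07). EMB, a chaperone of monocarboxylate transporters, fell by 0.44 ± 0.09 in R227Q (edgeR adjusted p = 0.00091, lost without WT 3) and was at −0.24 ± 0.11 in H448L. The mitochondrial pyruvate carrier subunits MPC1 and MPC2 lay between −0.06 and 0.07. In the pentose phosphate pathway 0 of 10 were higher in both variants, and 2 and 1 were lower. PRPS2, which makes phosphoribosyl pyrophosphate, fell by 0.39 ± 0.05 and 0.32 ± 0.06, the H448L call being lost without WT 3. TKT, transketolase, fell by 0.13 ± 0.04 in R227Q, a call that ended without any of WT 2, WT 3 and the R227Q libraries, and was at −0.05 ± 0.05 in H448L. Of 8 glycogen genes 3 were lower in each variant (37.5%, against 9.91% and 4.99% of all tested genes) and 0 higher: GYG1, the glycogen primer, GSK3B and GBE1, the branching enzyme. A list of 8 is too short to read a share from. GYG1 was at −0.33 ± 0.06 in R227Q (edgeR adjusted p = 8.1e-05, lost without WT 3). In H448L it was at −0.22 ± 0.07 (edgeR adjusted p = 0.035, lost with DESeq2 and without WT 3, H448L 1 or H448L 2). The calls of GSK3B and GBE1 ended with DESeq2 and without WT 1 or WT 3, among others, in both variants. Other glycolytic isoforms gave 1 higher and 2 lower of 15 in R227Q and 0 in H448L, where edgeR gave 4 at an unadjusted p under 0.05. Beside PGAM4, GPD1L, a glycerol-3-phosphate dehydrogenase-like enzyme, fell by 0.30 ± 0.08 in R227Q (lost without WT 3 or R227Q 1) and was at −0.27 ± 0.09 in H448L. G6PC3, a glucose-6-phosphatase, rose by 0.20 ± 0.06 in R227Q (lost without WT 2 or R227Q 1, and with DESeq2) and was at 0.20 ± 0.07 in H448L. Other hexose transporters gave 2 and 1 higher of 6, with SLC2A11 at 0.42 ± 0.11 and 0.43 ± 0.13, calls that ended without WT 3 or R227Q 1 in both variants and, in H448L, also without WT 1, R227Q 3, H448L 2 or H448L 3. Both SLC2A11 calls also ended with DESeq2. SLC2A5, the fructose transporter, rose by 0.66 ± 0.23 in R227Q (lost without WT 2, WT 3 or R227Q 3, and with DESeq2) and was at 0.77 ± 0.26 in H448L (edgeR adjusted p = 0.068). Among genes of glucose sensing by MondoA and MYC, 2 and 3 of 14 were higher and 0 lower. TXNIP, the MondoA target that restrains glucose uptake, rose by 0.42 ± 0.09 in R227Q and 0.44 ± 0.10 in H448L, calls that both ended without R227Q 1. The H448L call of TXNIP also ended with DESeq2. MLXIPL (ChREBP), the paralog of MondoA, had 1.09, 1.15 and 0.648 CPM in R227Q 1 to 3, 0.891, 1.05 and 1.31 CPM in H448L 1 to 3, and 0.385, 0.388 and 0.271 CPM in WT 1 to 3. It rose by 1.5 ± 0.43 and 1.77 ± 0.49 on the log2 scale, with as few as 3 counts in a library; both calls ended with DESeq2 and without WT 3 or R227Q 1, and the H448L call also without R227Q 3 or H448L 3. Of the arrestin-like relatives of TXNIP, ARRDC2 rose by 0.38 ± 0.12 in H448L (edgeR adjusted p = 0.049, lost with DESeq2 and without any 1 library other than WT 1) and was at 0.20 ± 0.10 in R227Q, while ARRDC4 (−0.04 and 0.30) did not pass, nor did MYC (0.24 and 0.31). The other genes with the smallest p-values of these lists, PGM1, GALM, TIGAR, PGLS, RPE, H6PD, GYS1, MDH1, SLC2A4, SLC2A6, RBX1, SIAH2 and MXD4, passed in no comparison, at log2 fold changes of −0.25 to 0.33. The counts of R227Q and H448L share the WT libraries throughout.

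**Figure D5:**
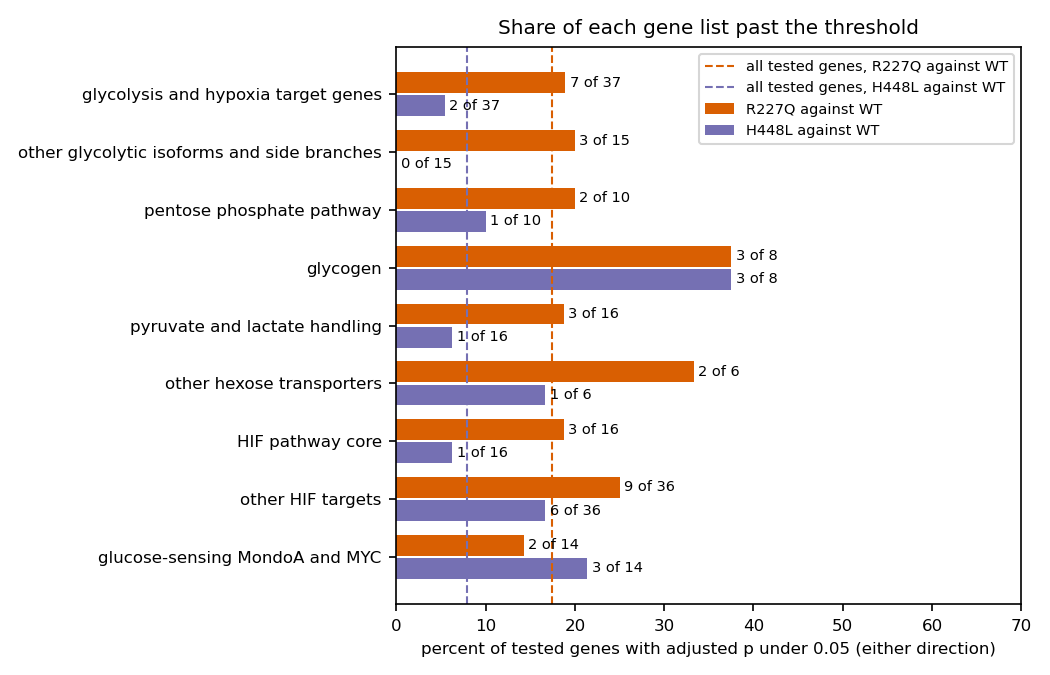
Percent of tested genes with an adjusted p under 0.05 in either direction (x axis, bars from 0) for the 37 tested members and 8 neighbouring gene lists (y axis), R227Q (orange) and H448L (purple) against WT, with the number passed beside each bar. Dashed lines mark all 16908 tested genes, 17.4% for R227Q and 7.97% for H448L; the members lie near the R227Q line and below the H448L line.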

How the data were processed

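Poly-A RNA was sequenced from 9 Hap1 libraries. Per the labels' protocols, lysates went to a sequencing service for RNA extraction, poly-A capture, second-strand synthesis, tagmentation and Illumina amplification. Per the submitters' processing notes, reads were placed on GRCh38; no aligner, counter or strand setting is given in the sources used here. The deposited tables, 1 for each column set, hold the authors' estimated counts for every gene, per the file headers, beside CPM, which are those counts relative to library totals. Depth is stated with the results, and its limits cover counting error only.

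Counts were rounded. The 92 spike-in entries were removed, and no entry was blank. Genes passed edgeR's filterByExpr (16908 genes), were scaled by TMM (factors 0.969 to 1.025) and fitted with group and column set (5 residual degrees of freedom, common biological coefficient of variation 2.96%). edgeR's quasi-likelihood test was two-sided, with Benjamini-Hochberg adjustment over all tested genes and a threshold of 0.05. Standard errors are log2 fold changes over the root of F. Values within a column set are untested differences in mean log2 CPM (prior count 2). The procedure was tested on simulated data. Versions were edgeR 4.0.16, DESeq2 1.42.0 and limma 3.58.1 in R 4.3.3.

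The members and neighbouring lists were chosen with earlier results of these data known. Named genes are all members, genes among the 2 smallest p-values of each neighbouring list per comparison, and TXNIP, ARRDC4, MYC, VEGFA, EPAS1, VHL, ERO1A, DDIT4, STC2, MPC1 and MPC2, with an item of the rule not reported here; PGAM4, GBE1 and the marker genes with values were named after their values were seen. Gene positions are GENCODE 29 on GRCh38, and promoters are RefSeq's. As alternatives, results were recomputed with limma-voom, DESeq2, upper-quartile or RLE factors, no filter, a mean of at least 10 counts, no column set term, a replicate block, 4LJFHN alone and each library left out.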

Additional observations from a re-analysis of the deposited data

How the results depend on the processing

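Calls of the members were fragile, their directions less so. Of the 81 values of the 9 called member results under other settings, 59 stayed called in the same direction and 22 lost the call; with 1 library left out, 59 of 81 stayed and 22 were lost. None of these reversed. Of 918 values of members not called, 7 gained a call and 98 changed sign uncalled under other settings, and 7 and 91 did so with 1 library left out.

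Without the column set term no member passed (0 in R227Q, 0 in H448L), and 312, 147 and 1 genes passed in R227Q against WT, H448L against WT and H448L against R227Q, where the median member was at −0.05. DDIT4 in H448L then changed sign, to −0.01 (edgeR adjusted p = 0.98). By construction that fit mixes column set with group. Within 4LJFHN alone, 2 members passed in R227Q and 0 in H448L, with 1138 and 734 genes and member medians of −0.09 and −0.07; 1 WT library remained there and is assumed to vary like the other groups. DESeq2 called 1557, 694 and 54 genes, and 1 member in H448L; the cause was not tested. Upper-quartile factors left 1 member in H448L and medians of −0.04 and −0.03. They also turned the split of R227Q calls over all genes to 1565 higher and 1335 lower, against 1268 and 1676 with TMM, while the median of all genes moved to 0.03. DESeq2 gave 504 higher and 1053 lower for R227Q, and 160 and 534 for H448L, against 503 and 844 with edgeR. With no filter 122 genes passed in H448L against R227Q.

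With 1 library left out, genes called ranged from 1093 (without WT 3) to 3262 in R227Q, from 253 (without WT 3) to 1378 in H448L, and from 4 (without R227Q 3) to 91 in H448L against R227Q. Members called ranged from 2 (without R227Q 1) to 9 and from 0 (without R227Q 1, WT 2 or WT 3) to 3, and the member medians from −0.09 to −0.04, −0.07 to −0.01 and −0.02 to 0.01. Same-numbered libraries of R227Q and WT correlated at −0.40, 0.12 and −0.38 after group and column set were removed. Removing both ties these residuals together by construction, and the differently numbered R227Q 1 and WT 3 correlated at 1.00. The correlations therefore cannot decide whether the numbers pair the samples. Without WT 3, H448L and WT share no column set, and that comparison then rests on the column set term. With a replicate block beside the column set term 2669, 1055 and 31 genes and 7, 2 and 0 members passed; of the H448L members 1 was shared with the fit without it. At this depth, differences in members under 20 CPM below about 2 standard errors of 0.08 to 0.19 could not pass.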

Other observations

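Collagen transcripts split by column set. COL3A1, a fibrillar collagen of fibroblasts, had 0 counts in R227Q 1, WT 1 and WT 2 (SDKYMR), and 2.57 and 2.19 CPM in R227Q 2 and R227Q 3, 2.67, 4.15 and 3.64 CPM in H448L 1 to 3 and 2.99 CPM in WT 3 (4LJFHN). COL1A2 had 0.163 CPM in R227Q 1 and 0.385 and 0.155 CPM in WT 1 and WT 2, against 5.34 to 10.2 CPM in the 4LJFHN libraries. COL1A1 went the same way, with 18.4 to 22.8 CPM in SDKYMR and 42.9 to 55 CPM in 4LJFHN. The other tested fibroblast markers overlapped between column sets. PDGFRA had 7.94 to 10.7 CPM in SDKYMR and 5.2 to 9.32 CPM in 4LJFHN, and THY1 0.693 to 1.79 and 1.11 to 2.35 CPM. The neuronal markers did not move together. MAP2, a neuronal microtubule gene, had 12.3, 21.0 and 21.9 CPM in R227Q 1 to 3, 21.6, 19.9 and 21.9 CPM in H448L 1 to 3, and 7.54, 8.93 and 17.7 CPM in WT 1 to 3. TUBB3, a neuronal tubulin, had 117.2, 108.9 and 108.5 CPM in R227Q 1 to 3, 107.3, 104.9 and 93.6 CPM in H448L 1 to 3, and 129.3, 133.7 and 120.6 CPM in WT 1 to 3, and SYP, a synaptic vesicle protein, averaged 1.86 CPM in R227Q, 2.85 CPM in H448L and 2.58 CPM in WT. NEFL, the fourth tested marker of that list, did not pass in either variant.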
